A study of Mus musculus with 6 samples.

Results

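The epithelium of the dorsal conjunctiva was compared between Sox9 knockout and wild-type mouse embryos on 2 of the 6 Illumina bead arrays of a series, the array titled KO dorsal and the array titled WT dorsal. Both were chosen by title alone and are the only arrays of this region, so each genotype has 1 array and no test was made. The KO dorsal array holds embryos that were Sox9 fx/fx and Le-Cre-positive, labelled Sox9-/-, and those on the WT dorsal array were labelled wild type. Both arrays hold embryos of a mixed FVB and 129 background at E14.5. Le-Cre recombines in ectoderm-derived tissues of the eye surface, so cells of other origin keep their Sox9 alleles, and the labels do not say whether the wild-type embryos carried Cre or a floxed allele. The design text names 3 embryos per genotype with their cDNA pooled by region, whereas the protocol for extraction mentions lens from 1 embryo. Tissue was cut out by laser microdissection, and the RNA was amplified before labelling. The other 4 arrays hold the nasal and temporal conjunctiva of both genotypes and serve here as background.

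The conjunctiva is a thin mucous membrane whose epithelium lines the lids and the front of the sclera. Its nasal and temporal folds bud into the Harderian and lacrimal glands, and its dorsal part forms no gland bud. Sox9 is a transcription factor of the SoxE group, with an HMG box that binds DNA, and it is known for driving cartilage formation and for its role in the buds of several branching glands. The dorsal pair asks which genes differ with genotype where no gland forms.

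The KO dorsal array detected 20333 of 45281 probes (44.9%) and the WT dorsal array 20660 (45.6%), against 18040 to 19969 on the other 4 arrays. Median signals were 80.5 intensity units on KO dorsal and 79.4 on WT dorsal, and the median number of beads per probe was 43 on each. A probe counts as detected where its deposited detection p-value is under 0.05. All 6 arrays lay on 1 chip with the knockout arrays in neighbouring positions, so chip position and genotype cannot be told apart. All 17 surface ectoderm markers on the array were detected on both dorsal arrays, among them the keratin Krt5 (10.51 against 10.08 on a normalized log2 scale, KO dorsal against WT dorsal), the transcription factor Trp63 (7.996 against 7.73), the adhesion protein Epcam (8.67 against 8.76) and the eye factor Pax6 (9.62 against 10.05).

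Sox9 itself was read by 2 probes that disagree in sign. The brighter probe (ILMN_2778151) gave a signal of 1029 ± 24.6 on the KO dorsal array and 1192 ± 27.2 on the WT dorsal array (bead SE). After normalization the levels were 9.85 against 10.35, a difference of -0.50 (bead SE 0.05), and 10.21 and 10.06 on the KO nasal and KO temporal arrays against 8.29 and 10.01 on the WT nasal and WT temporal arrays. The dimmer probe (ILMN_3007428) gave 164 ± 5.65 on the KO dorsal array and 111 ± 3.24 on the WT dorsal array, a difference of 0.78 (bead SE 0.12). WT dorsal was thus the highest of all 6 arrays by the brighter probe, while KO dorsal was the highest of all 6 by the dimmer one. Whether either probe lies in the floxed segment was not determined. They do not settle the label, and KO dorsal means the array labelled knockout throughout.

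Of 11314 genes detected on at least 1 dorsal array, 357 (3.16%) were at least 2-fold higher on KO dorsal and 353 (3.12%) at least 2-fold lower, 710 (6.28%) in all. Each gene was represented by its brightest detected probe, and differences are KO dorsal minus WT dorsal on the log2 scale of background-corrected signal plus an offset of 16, which understates the change of dim genes. The median difference was 0.004, and 71.2% of the genes lay within 0.5 log2 units. All 710 genes exceeded 3 times the bead SE of their difference, and so did 38.1% of all genes. A bead SE covers measurement on the array and not embryos, dissection or amplification. Genes past 2-fold were concentrated at middle brightness, with 12.1% of the middle 3770 genes called, 3.23% of the dimmest 3772 and 3.5% of the brightest 3772.

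**Figure D1:**
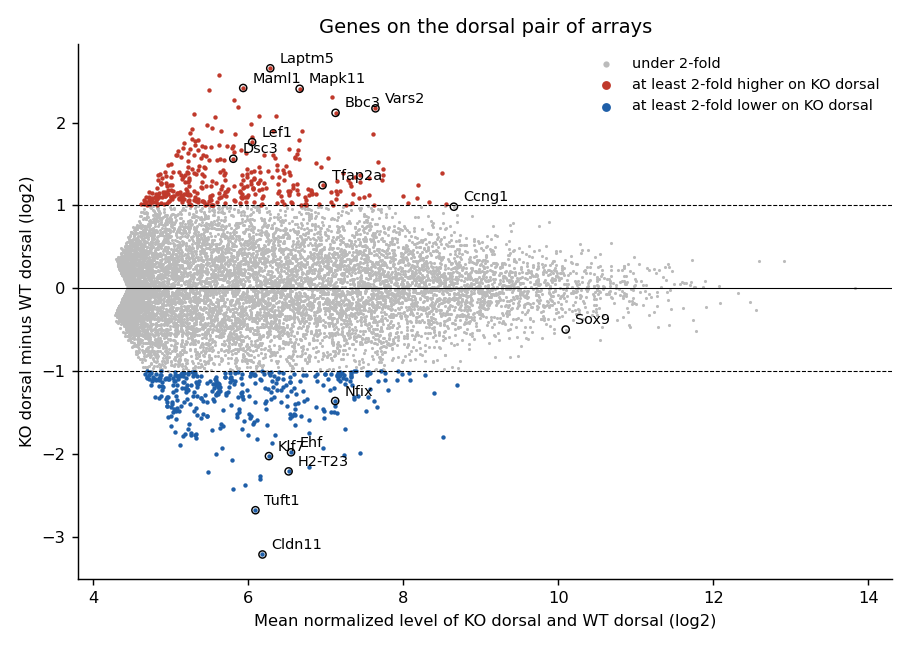
Difference between KO dorsal and WT dorsal (log2, y axis) against the mean level of both arrays (log2, x axis), 1 point per gene, with dashed lines at 2-fold and circles around genes named in the text. Cldn11 lies lowest at -3.22 and Laptm5 highest at 2.66, and genes above a level of about 9 stay within the 2-fold lines.

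The distance between the dorsal arrays lay within the range of wild-type arrays of different regions, near its lower end. Among probes detected on either array of a pair, 5.62% were at least 2-fold apart between KO dorsal and WT dorsal. The share was 5.16% between WT temporal and WT dorsal and 8.98% between WT nasal and WT dorsal, pairs of 1 genotype. Between KO and WT it was 14.7% for the temporal and 19.0% for the nasal arrays. KO dorsal was nearer to every wild-type array (5.62% to 11.2%) than to the KO temporal (14.4%) or KO nasal array (17.5%).

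**Figure D2:**
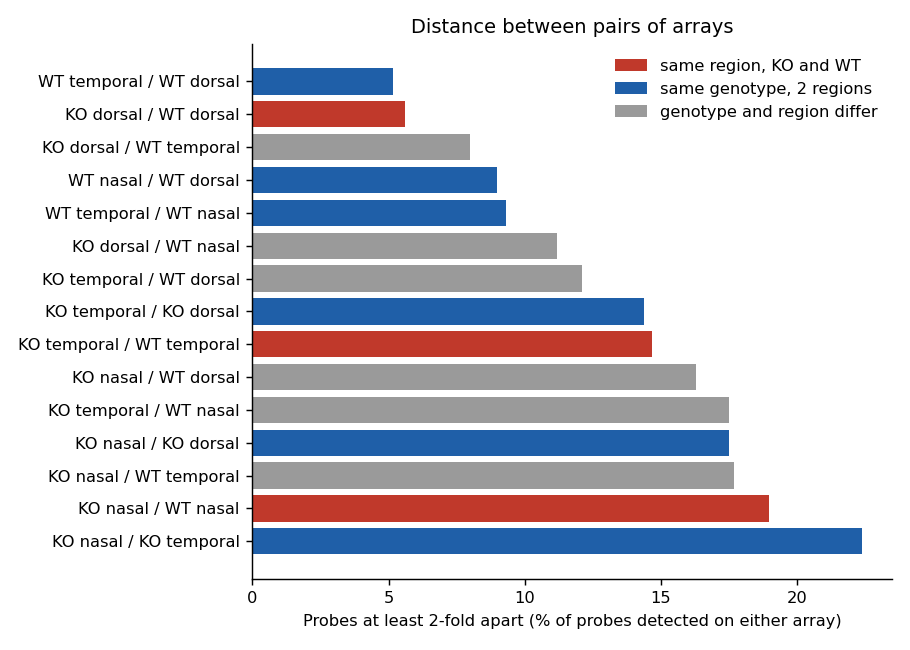
Share of probes at least 2-fold apart (x axis, percent of the probes detected on either array) for all 15 pairs of arrays, red for the genotypes within a region, blue for regions within a genotype and grey where both differ. The dorsal pair (5.62%) is the nearest of the 3 pairs within a region, and of the 15 pairs the wild-type temporal and dorsal arrays alone lie closer (5.16%).

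Lowest on KO dorsal was Cldn11, on chromosome 3, which encodes a claudin of tight junctions. Its signal was 85.4 ± 2.004 on the KO dorsal array and 248 ± 9.09 on the WT dorsal array, a normalized 4.58 against 7.79 and a 9.29-fold difference (-3.22, bead SE 0.13). The other knockout arrays read 5.33 and 5.25 in nasal and temporal, and the wild-type arrays 8.74 and 6.58. All 3 KO arrays therefore lay below all 3 WT arrays, and KO dorsal was the lowest of the 6. Such separation was found in 6.28% of all measured genes, in 74 of the 353 lower genes and in 3 of the 12 lowest. All 3 KO arrays lay above all 3 WT arrays in 5.34% of all measured genes, in 57 of the 357 higher genes and in 1 of the 12 highest, Prmt6. The called genes were chosen on the dorsal difference, which fixes part of this order in advance. Their shares are therefore not like for like with those of all genes. Over the 9 alternative settings the dorsal difference of Cldn11 lay between -3.22 and -1.74.

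Klf7 and H2-T23 were the other genes of the 12 lowest with all KO arrays below all WT arrays. Klf7, a Krüppel-like zinc finger transcription factor, gave 102 ± 2.56 on the KO dorsal array and 196 ± 4.21 on the WT dorsal array, a difference of -2.03 (bead SE 0.10). It read 4.99 and 5.60 on KO nasal and KO temporal and 7.13 and 7.81 on WT nasal and WT temporal, so the genotypes did not overlap. A second Klf7 probe detected on both dorsal arrays read 5.56 against 5.07 and went the other way (0.49). H2-T23, which encodes a non-classical class I molecule, gave 107 ± 2.46 on the KO dorsal array and 228 ± 9.31 on the WT dorsal array (-2.21, bead SE 0.11), with 6.08 and 5.88 on the other KO arrays and 7.90 and 7.52 on the other WT arrays. Its remaining probes were only -0.23 and -0.11, and class I genes are near-identical copies, so which gene the brightest probe reads is uncertain.

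C2cd4a, which encodes a C2-domain protein, gave 95.5 ± 3.39 on the KO dorsal array and 197 ± 6.81 on the WT dorsal array (-2.31, bead SE 0.16). The temporal KO array was low as well (5.41), but the nasal KO array (6.66) lay above WT temporal (6.09). Gpm6a, a neuronal membrane glycoprotein, gave 85.7 ± 2.61 on the KO dorsal array and 145 ± 4.83 on the WT dorsal array (-1.996, bead SE 0.17). It was as low on KO temporal (4.55) but not on KO nasal (6.72), where it lay between WT temporal (5.77) and WT nasal (7.13).

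Tuft1, Akap8l and Dync2h1 were low on KO dorsal alone among the knockout arrays. Tuft1, which encodes tuftelin, first described in tooth enamel, gave 89.5 ± 2.26 on the KO dorsal array and 209 ± 8.79 on the WT dorsal array (-2.68, bead SE 0.14), and it read 7.32 and 7.36 on the other KO arrays. Dync2h1, the motor heavy chain of retrograde transport in cilia, gave 96.2 ± 2.64 on the KO dorsal array and 196 ± 5.92 on the WT dorsal array (-2.26). Its 2 other KO arrays (6.79 and 7.87) lay above both nasal and temporal WT arrays (5.97 and 6.12), the opposite of the dorsal pair. Akap8l, a nuclear protein related to the kinase A anchoring protein Akap8, was likewise low in dorsal alone (4.77 against 7.14), with 7.61 and 6.74 on the other KO arrays and 5.90 and 5.84 on the other WT arrays. A second Dync2h1 probe detected on both dorsal arrays was only -0.45, and the mean over its probes was -0.61. Prkg1, the cGMP-dependent protein kinase, differed by -2.42, the deacylase Sirt7 by -2.16, Haghl by -2.07 and Phldb2, a protein of the basal cell cortex, by -2.01. Haghl and Sirt7 were also lower on KO nasal (5.51 and 6.77) than on WT nasal (6.66 and 7.37), and KO temporal was not lower than WT temporal for either gene. Second probes detected on both arrays gave -0.97 for Prkg1 and -0.21 for Haghl. The 12 genes were chosen on the dorsal difference, and for all of them KO dorsal lay below all 3 WT arrays, as it did in 260 of the 353 lower genes and in 23.3% of all genes.

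Promoters of the genes farthest apart are shown because Sox proteins bind DNA around the sequence AACAAT, which was searched on both strands in the 250 bases before the start. RefSeq promoters (GRCm38.p6, the first start listed for a gene) matched 22 of the 24 genes of the lowest and highest sets, all but Tuft1 and Rab7b. Gpm6a alone held the motif, written in capitals, and Cldn11 and Klf7 did not. The plus-strand windows are chr3:31149670-31149919 for Cldn11 and chr8:54779184-54779433 for Gpm6a, and the minus-strand window is chr1:64121390-64121639 for Klf7.
Cldn11: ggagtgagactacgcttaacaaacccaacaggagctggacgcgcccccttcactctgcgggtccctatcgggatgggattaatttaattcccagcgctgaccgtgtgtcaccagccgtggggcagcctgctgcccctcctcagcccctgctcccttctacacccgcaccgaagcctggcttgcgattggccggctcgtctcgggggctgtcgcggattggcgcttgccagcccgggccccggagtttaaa
Klf7: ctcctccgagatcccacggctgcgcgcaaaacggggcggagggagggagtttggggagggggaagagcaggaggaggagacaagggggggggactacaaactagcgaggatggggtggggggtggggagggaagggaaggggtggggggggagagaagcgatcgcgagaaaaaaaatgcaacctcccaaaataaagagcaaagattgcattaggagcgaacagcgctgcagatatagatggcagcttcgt
Gpm6a: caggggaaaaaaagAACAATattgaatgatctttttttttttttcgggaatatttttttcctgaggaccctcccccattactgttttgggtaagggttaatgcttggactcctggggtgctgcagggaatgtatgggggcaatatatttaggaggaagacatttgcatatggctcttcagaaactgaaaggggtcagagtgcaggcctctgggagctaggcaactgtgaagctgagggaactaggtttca
The motif stood in 14 of 276 promoters of the genes at least 2-fold lower (5.07%), in 17 of 292 of those higher (5.82%) and in 514 of 9132 of all measured genes (5.63%). Over all 27025 promoters of the table the share was 9.65%. A match is a string of letters and not a site shown to be bound.

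Highest on KO dorsal was Laptm5, a lysosomal membrane protein of blood cells, with 271 ± 14.9 on the KO dorsal array and 90.3 ± 3.19 on the WT dorsal array (2.66, bead SE 0.18, 6.30-fold). The other KO arrays read 4.31 and 6.07 and the other WT arrays 6.23 and 4.58 in nasal and temporal, so neither genotype was uniformly high. The summed macrophage and leukocyte markers were 8.98 on KO dorsal and 8.11 on WT dorsal, and their part in the Laptm5 value was not tested. Maml1, a Mastermind-like coactivator of Notch, gave 213 ± 5.27 on the KO dorsal array and 86.2 ± 1.957 on the WT dorsal array (2.42, bead SE 0.12). The remaining 5 arrays lay between 4.28 and 5.26, so KO dorsal alone was high. A second Maml1 probe, also detected on both dorsal arrays, read 5.09 against 5.53 and went the other way (-0.43).

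Ackr4, a chemokine receptor that takes up its ligands without signalling through G proteins, gave 167 ± 5.26 on the KO dorsal array and 82.9 ± 2.02 on the WT dorsal array (2.07, bead SE 0.14). It stood between 4.27 and 5.30 on the 5 other arrays. Dap, a death-associated protein, was also high on KO dorsal alone (6.97 against 4.78 in dorsal, 5.30 to 5.52 on 3 of the other 4 arrays and 4.94 on KO nasal). Vars2, the valyl-tRNA synthetase of mitochondria, had 512 ± 17.0 on the KO dorsal array and 144 ± 6.28 on the WT dorsal array (2.17), against 5.42 to 6.87 on the other 4 arrays.

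Mapk11, the p38 beta kinase, gave 309 ± 10.98 on the KO dorsal array and 101 ± 3.62 on the WT dorsal array (2.41, bead SE 0.14). It was high on KO temporal (7.35) and WT temporal (6.71) and low on KO nasal (4.57) and WT nasal (4.83). Its second probe was high on KO dorsal (6.53, against 4.65 on WT dorsal) but not in temporal (4.20 on KO and 5.02 on WT). Rab7b, a small GTPase of endosomal traffic, was high on KO dorsal and KO temporal (7.03 and 7.77) and at 5.05 on WT dorsal, with 4.24, 4.43 and 4.62 on the rest. Bbc3, the p53-induced death factor also called PUMA, gave 372 ± 13.6 on the KO dorsal array and 121 ± 3.59 on the WT dorsal array (2.12, bead SE 0.10). In nasal and temporal it was lower on the KO array (-1.50 and -1.30), the opposite of dorsal.

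The set of 12 was completed by Gm8817, a predicted gene (2.31), Ankrd37, which hypoxia induces (2.27), the arginine methyltransferase Prmt6 (2.08) and Iba57, an iron-sulfur cluster factor of mitochondria (2.08). KO dorsal lay above all 3 WT arrays for all 12 genes, which were chosen on the dorsal difference, in 312 of the 357 higher genes and in 29.4% of all genes. A second Prmt6 probe detected on both arrays was only -0.18. Among all genes at least 2-fold higher, KO dorsal was the highest of the 6 arrays in 238 of 357, and WT dorsal was the lowest of the 6 in 97. For the 353 lower genes KO dorsal was the lowest of the 6 in 169 and WT dorsal the highest in 153. These genes were chosen on the dorsal difference, and the same counts were not made over all genes, so no reading is drawn from them.

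**Figure D3:**
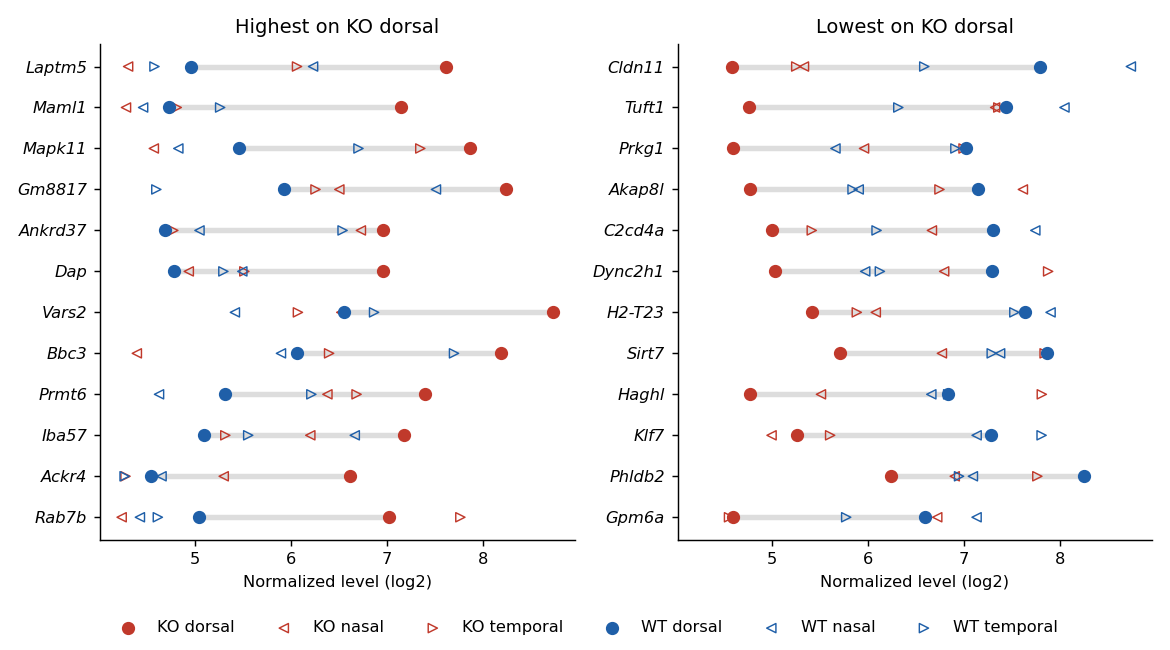
Normalized level (log2, x axis) of the 12 genes highest and the 12 lowest on KO dorsal, on all 6 arrays, red for KO and blue for WT, filled circles for dorsal, left-pointing triangles for nasal and right-pointing ones for temporal. The genotypes are separate on all arrays for Cldn11, Klf7 and H2-T23 among the lowest genes and for Prmt6 among the highest. For Maml1, Ackr4, Vars2 and Dap the KO dorsal point stands apart from the 5 others.

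Some genes had no probe detected on 1 of the dorsal arrays, so that their fold is a lower bound, set against the lowest level of a detected probe. Avpr1a, the vasopressin V1a receptor, was detected on KO dorsal alone of all 6 arrays (6.91, against 4.34 on WT dorsal and 4.21 to 4.28 on the other 2 WT arrays) and was at least 5.54-fold higher. Its second probe was detected on neither dorsal array. Gpatch3, a G-patch protein, was likewise detected on KO dorsal alone, at least 3.32-fold higher. Bounds were 3.36 for the DNA crosslink repair nuclease Dclre1a, 3.06 for the zinc finger gene Zfp738, 2.95 for the mitochondrial import chaperone Timm13 and 2.81 for the helicase Dhx35.

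In the other direction Cep152, a centriole duplication protein, was at least 4.41-fold lower on KO dorsal (4.38 against 6.60). The other KO arrays detected it (5.95 and 6.64), so KO dorsal stood alone among the 6 arrays. Ptx3, a secreted pentraxin of innate immunity, was at least 3.41-fold lower (4.42 against 6.23), and it was low on the other KO arrays too (4.18 and 4.38) and present on the other WT arrays (5.93 and 6.66). Its second probe gave 4.17 against 6.30. Klhl3, an adaptor of the cullin-3 ubiquitin ligase, was at least 3.36-fold lower, the interferon-induced ubiquitin-like Isg15 3.34-fold and C2cd4c 3.20-fold. For Klhl3, Isg15 and C2cd4c WT dorsal was the highest of the 6 arrays. KO dorsal (4.44, 4.43 and 4.38) lay above WT nasal (4.19, 4.28 and 4.30), and WT temporal read 5.84, 4.33 and 4.55. The embryonic globin Hbb-y was at least 3.07-fold lower, beside other globins that were lower on KO dorsal.

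Several probes of a gene read the same RNA in different places, so they check the array but not the embryos. Of 3628 genes with 2 or more probes detected on both dorsal arrays, 20 (0.551%) had at least 2 probes 2-fold higher and none lower than on WT dorsal, and 21 (0.579%) had the reverse. Among the other probes of the called genes, 95 of 140 had the same sign for higher genes (67.9%) and 131 of 193 for lower genes (67.9%), against 58.1% over all genes. Past 2-fold the same way were 13.6% and 14.0% of them, so most of the single-gene values rest on 1 probe.

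Mapk11 led the higher genes with agreeing probes, at 1.88 and 2.41, followed by Ackr4 at 1.74 and 2.07, whose other probes were detected on neither array. Fam110b gave 1.70 and 1.76. It was lower on the KO array in nasal (-1.81) and temporal (-1.07), so its dorsal difference stands against both other regions. Ankfy1, an endosomal Rab5 effector, gave 1.33 and 1.83. Lef1, a DNA-binding effector of Wnt signalling, had 3 probes at 1.01, 1.04 and 1.77. WT dorsal (5.17) and WT temporal (4.31) were low for Lef1, while WT nasal (7.86) lay above all KO arrays (6.69 to 6.99). Ccng1, the p53-induced cyclin G1, had 3 probes between 0.98 and 1.31, with the brightest at 661 ± 17.3 on the KO dorsal array and 304 ± 8.95 on the WT dorsal array. It was the highest of 6 arrays on KO dorsal (9.15, against 8.16 on WT dorsal). Trim27, Wdr46, the tight junction protein Tjp3 and the protein kinase A subunit Prkar2b completed this set, with means over probes of 1.23, 1.17, 1.14 and 1.14.

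Among the lower genes with agreeing probes, Adamts18, a secreted metalloproteinase, had 3 probes detected on both dorsal arrays, at -1.47, -1.28 and -0.79. The brightest probe read 209 ± 5.96 on the KO dorsal array and 261 ± 7.90 on the WT dorsal array. The other KO arrays (5.87 and 6.39) lay below the other WT arrays (7.73 and 8.49), so the genotypes did not overlap. Genotypes were ordered this way in 6.28% of all measured genes. Igsf1, an immunoglobulin superfamily membrane protein, led by mean over probes at -1.41, but was higher on the KO array in nasal (2.16) and temporal (0.85). Oxr1, a factor of resistance to oxidative damage, averaged -1.32 with its brightest probe at only -0.66. Aatf averaged -1.31 and the histone methyltransferase Prdm2 -1.26. Ahcy, which breaks down S-adenosylhomocysteine, averaged -1.18, and so did paxillin (Pxn), an adaptor of focal adhesions. Sbspon, Cwf19l2 and the endosomal sorting protein Stam were at -1.20, -1.19 and -1.17.

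**Figure D4:**
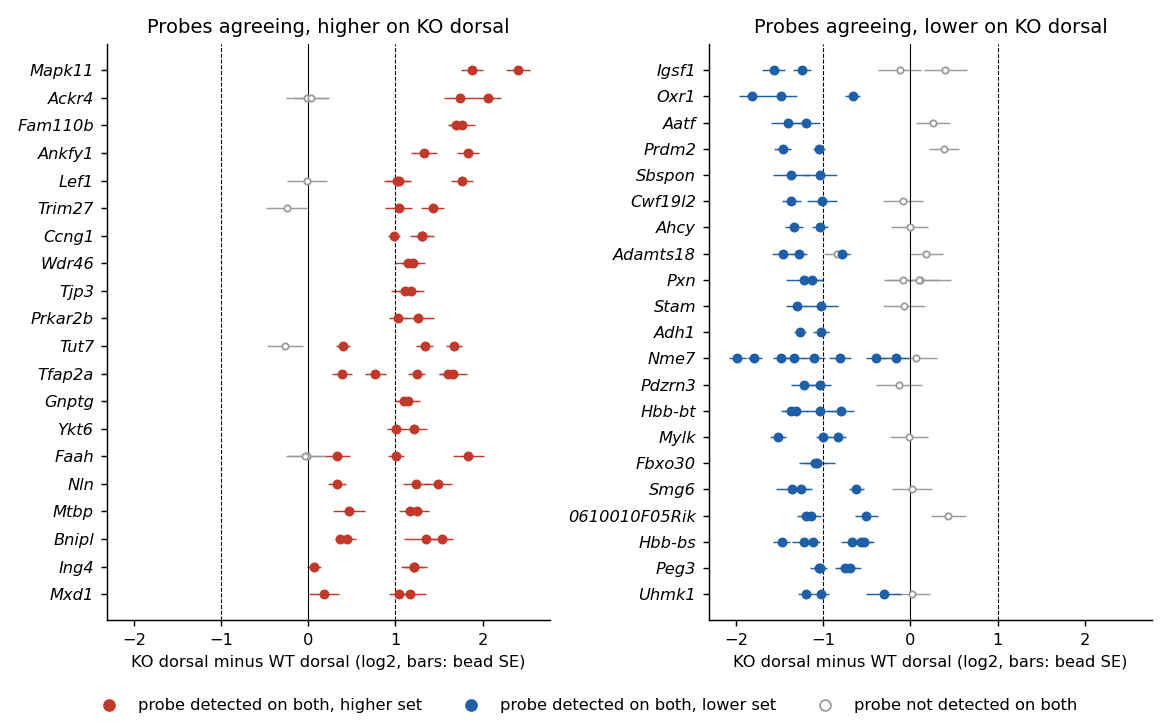
Difference between KO dorsal and WT dorsal (log2, x axis) of every probe of the 20 genes with agreeing probes higher (left) and the 21 lower (right), bars for bead SE and open circles for probes not detected on both arrays. The detected probes of Mapk11, Ackr4 and Fam110b all lie beyond 1.6, and the open circles lie within 0.5 of 0 except for a probe of Adamts18 at -0.84.

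Gene groups were set against all measured genes, of which 50.3% were higher on KO dorsal, 3.16% at least 2-fold higher and 3.12% at least 2-fold lower. Scaling the arrays to a common median in place of quantile normalization shifts the median of all genes to 0.209 and the share of higher genes among those past 2-fold from 50.3% to 79.3%, so group medians, where given in the text, are under both scalings. Of 33 lists with at least 10 measured genes, 15 had a median within 0.14 of 0, the median bead SE of a difference. Of 43 list members past 2-fold and detected on both arrays, 22 had another probe detected on both. In 12 of these every other probe had the same sign, and in 10 at least 1 had the opposite sign.

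Genes of epithelial adhesion were mostly a little higher. Of 32 measured keratin and desmosome genes 20 were higher, 2 of them past 2-fold by their brightest probe, and none was past 2-fold lower (median 0.17, 0.44 with median scaling). Dsc3, a desmosomal cadherin of stratified epithelia, gave 165 ± 5.000 on the KO dorsal array and 91.7 ± 2.57 on the WT dorsal array (1.56, bead SE 0.13). The other KO arrays (6.31 and 7.68) also lay above the other WT arrays (5.20 and 4.92), an order found in 5.34% of all measured genes. Esrp2, an epithelial splicing regulator, had probes that disagree. Its brightest read 7.95 against 6.64 in dorsal (1.31), with 7.08 and 7.81 on the other KO arrays and 5.84 and 6.43 on the other WT arrays, whereas a second read 5.71 against 7.03 (-1.33), so the direction of Esrp2 is not settled. The brightest members, Cdh1 (-0.24) and Esrp1 (-0.21), were slightly lower on KO dorsal. In 11 measured genes of epidermal differentiation 8 were higher, and involucrin (Ivl), a cornified envelope protein, was past 2-fold by a probe detected on KO dorsal alone of the pair (6.24 against 4.31), while a second probe detected on both gave 0.70. The loricrin gene Lor was detected on WT dorsal alone (4.18 against 5.03), and Grhl3 differed by 0.88.

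Among 27 measured claudin and tight junction genes, 15 were higher (median 0.09, 0.31 with median scaling). Beside Cldn11, the claudin Cldn8 was past 2-fold lower (5.14 against 6.75), though the other KO arrays (6.85 and 6.65) lay above the other WT arrays (6.19 and 6.28). Tjp3 was past 2-fold higher, and the brightest members Cgnl1 and Cldn6 differed by 0.69 and 0.25.

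Targets of p53, the stress-activated tumour suppressor, were more often higher than lower. Of 38 measured, 25 were higher, 3 of them past 2-fold (Bbc3, the translesion polymerase Polk at 1.13 and the nuclease Aen at 1.07). Pidd1 was detected on WT dorsal alone of the pair and was at least 1.76-fold lower. The median was 0.22 (0.37 with median scaling). Mdm2, which targets p53 for degradation, read 9.81 against 9.02, the highest of 6 arrays on KO dorsal and the lowest on WT dorsal, and the cell cycle inhibitor Cdkn1a 5.75 against 5.10. The 24 measured apoptosis regulators were divided, 10 higher and 14 lower, and Dap alone was past 2-fold (median -0.12, 0.15 with median scaling). No cell cycle gene of 40 measured was past 2-fold, and their median was 0.05 (0.29 with median scaling).

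In the Notch pathway 14 of 20 measured genes were higher (median 0.33, 0.62 with median scaling). Maml1 alone was past 2-fold, by 1 of its 2 probes. The receptor Notch1 differed by 0.58 (7.59 against 7.01) and the ligand Jag2 by 0.75, while the brightest members Adam17 and Jag1 differed by 0.29 and -0.02. The target gene Hes1 differed by 0.41. Hey1, another target, was level in the dorsal pair (5.82 against 5.84) and higher on all 4 other arrays (7.12 to 7.81). Its difference between regions was not tested.

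In the Wnt pathway 2 of 32 measured genes were past 2-fold higher, Lef1 and the ligand Wnt10b (1.06, with -0.06 by a second probe), and none lower, with a list median of -0.15 that turned to 0.17 with median scaling. Wnt7b, the ligand with the brightest probe, read 10.29 against 9.49 in dorsal and was higher on each KO array (10.02 and 9.99 in nasal and temporal) than on any WT array (9.37 and 8.25). Of 11 measured Hedgehog genes 6 were higher (median 0.32, 0.42 with median scaling). The coreceptors Boc at -1.45 (5.50 against 6.95) and Cdon at -1.37 (5.74 against 7.10, with -0.09 by a second probe) were past 2-fold lower. The receptor and target gene Ptch1 was at 0.96 by its brightest probe. That probe was higher on all 3 KO arrays (7.82 and 8.19 in nasal and temporal) than on any WT array (6.84 and 6.60). A second Ptch1 probe detected on both dorsal arrays went the other way (5.29 against 5.65, -0.35). By it KO nasal (4.20) lay below WT nasal (4.59) and KO temporal (5.79) above WT temporal (4.35). Genotypes were ordered as for Wnt7b and the brightest Ptch1 probe in 5.34% of all measured genes. The transcription factor Gli3 was at -0.98. BMP and TGF-beta receptors Acvr1 (-1.02) and Tgfbr2 (-1.01, with 0.10 by a second probe) were the members of their list of 21 past 2-fold, and its median was -0.17 (0.04 with median scaling). In the FGF and ERK list of 25, 12 genes were higher and 13 lower (median -0.01, 0.31 with median scaling). Mapk11 and the cytokine Lif (detected on KO dorsal alone of the pair, at least 2.70-fold higher) were past 2-fold. The feedback inhibitor Spry2 read 7.85 against 8.58, and it was lower on all 3 KO arrays (7.98 and 8.08 in nasal and temporal) than on the WT arrays (8.94 and 9.08). Such an order was found in 6.28% of all measured genes.

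Krüppel-like and nuclear factor I genes were the group of transcription factors with the lowest median, -0.34 (-0.17 with median scaling). Of 16 measured 12 were lower, and 3 past 2-fold by their brightest probe, Klf7, Klf12 at -1.52 and Nfix at -1.36. Of the other Klf12 probes detected on both arrays none was lower, and they reached 0.44, so the Klf12 value rests on 1 probe. Nfix read 6.44 against 7.80 in dorsal, 6.10 and 6.37 on the other KO arrays and 7.77 and 7.41 on the other WT arrays, without overlap of the genotypes, and a second Nfix probe detected on both arrays was -0.08. The brightest member apart from Klf6, Nfib, differed by -0.53. Of 16 measured gland and bud genes, Ehf, an ETS factor of epithelia, was past 2-fold lower (-1.98, bead SE 0.14). It gave 112 ± 4.06 on the KO dorsal array and 219 ± 9.29 on the WT dorsal array. It was below every WT array on all 3 KO arrays (4.53 and 5.94 against 7.40 and 6.68 in nasal and temporal). The order of genotypes seen for Ehf and Nfix was found in 6.28% of all measured genes. Tfap2a, an AP-2 factor of the surface ectoderm, was past 2-fold higher (7.58 against 6.34), and its 5 probes ranged between 0.38 and 1.66. The brightest members Barx2 and Fgfr2 differed by -0.34 and -0.63. None of the 13 genes of cornea and conjunctiva identity and none of the 10 Sox genes measured was past 2-fold.

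Cartilage targets of Sox9 were few and dim. Of 12 measured, 9 were lower, Matn4 (detected on WT dorsal alone of the pair, at least 2.60-fold lower) and the collagen Col2a1 (5.02 against 6.15) past 2-fold, and the hyaluronan link protein Hapln1 was past 2-fold higher (6.67 against 5.45). Col2a1 was far higher on WT temporal and WT nasal (10.04 and 8.09) than on either dorsal array. The median of the list was -0.29 (-0.31 with median scaling).

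Of 33 basement membrane and integrin genes 25 were lower, none past 2-fold, and the median was -0.28 (-0.12 with median scaling). The largest was Col4a6, a chain of basement membrane collagen, at -0.96 by its brightest probe. A second Col4a6 probe detected on both dorsal arrays gave 0.13. The brightest members, Sparc and Dag1, differed by -0.05 and -0.49. Heparan sulfate core proteins went both ways (median -0.21, 0.12 with median scaling), with the glypican Gpc4 (1.15) higher and the syndecan Sdc2 (-1.37) lower. Spock2 was lower by its brightest probe (-1.06), while a second was detected on KO dorsal (5.50) and not on WT dorsal (4.34). The brightest probe of the hyaluronan receptor Cd44 was likewise detected on KO dorsal alone of the pair (6.35, against 4.25 on WT dorsal). It read 6.44 on KO nasal. Other Cd44 probes detected on KO dorsal alone of the pair differed by 1.22, 1.03, 0.55, 0.39 and 0.39, while its probe detected on both differed by 0.07. Of 27 heparan sulfate synthesis genes, the 2-O-sulfotransferase Hs2st1 (6.70 against 8.04) and the linker enzyme B3gat3 (5.24 against 6.34) were past 2-fold lower by their brightest probes, and none was past 2-fold higher. Another probe detected on both arrays gave 0.46 for Hs2st1, and 2 others gave -1.12 and 0.14 for B3gat3. Has2, a hyaluronan synthase, was lower (5.98 against 7.25) and below every WT array (7.39 and 8.39 in nasal and temporal), as KO nasal was (6.74) and KO temporal (7.66) was not.

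Class I antigen presentation and interferon genes split, with H2-T23, Isg15 and Irf9 (-1.20) past 2-fold lower and Stat2 (detected on KO dorsal alone of the pair, at least 2.26-fold) higher among 23 measured (median -0.06, 0.12 with median scaling). A second Irf9 probe went the other way (0.22). In the list of hypoxia and glycolysis genes 20 of 28 were higher, Ankrd37 and the muscle phosphoglycerate mutase Pgam2 (1.26) past 2-fold, with a median of 0.25 (0.49 with median scaling). Among 32 lysosomal genes Laptm5 was past 2-fold higher and the protease Ctsc past 2-fold lower (5.43 against 7.07), and the semaphorin list of 24 held Sema3d (detected on WT dorsal alone of the pair, at least 2.40-fold lower) and Plxnc1 (on KO dorsal alone, at least 1.86-fold higher). Dusp1 (1.13) was the immediate early gene of 18 past 2-fold. Of 39 cytosolic ribosomal proteins, 47 oxidative phosphorylation genes, 27 heat shock and unfolded protein genes, 16 cholesterol synthesis genes and 14 water and ion transport genes, none was past 2-fold.

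**Figure D5:**
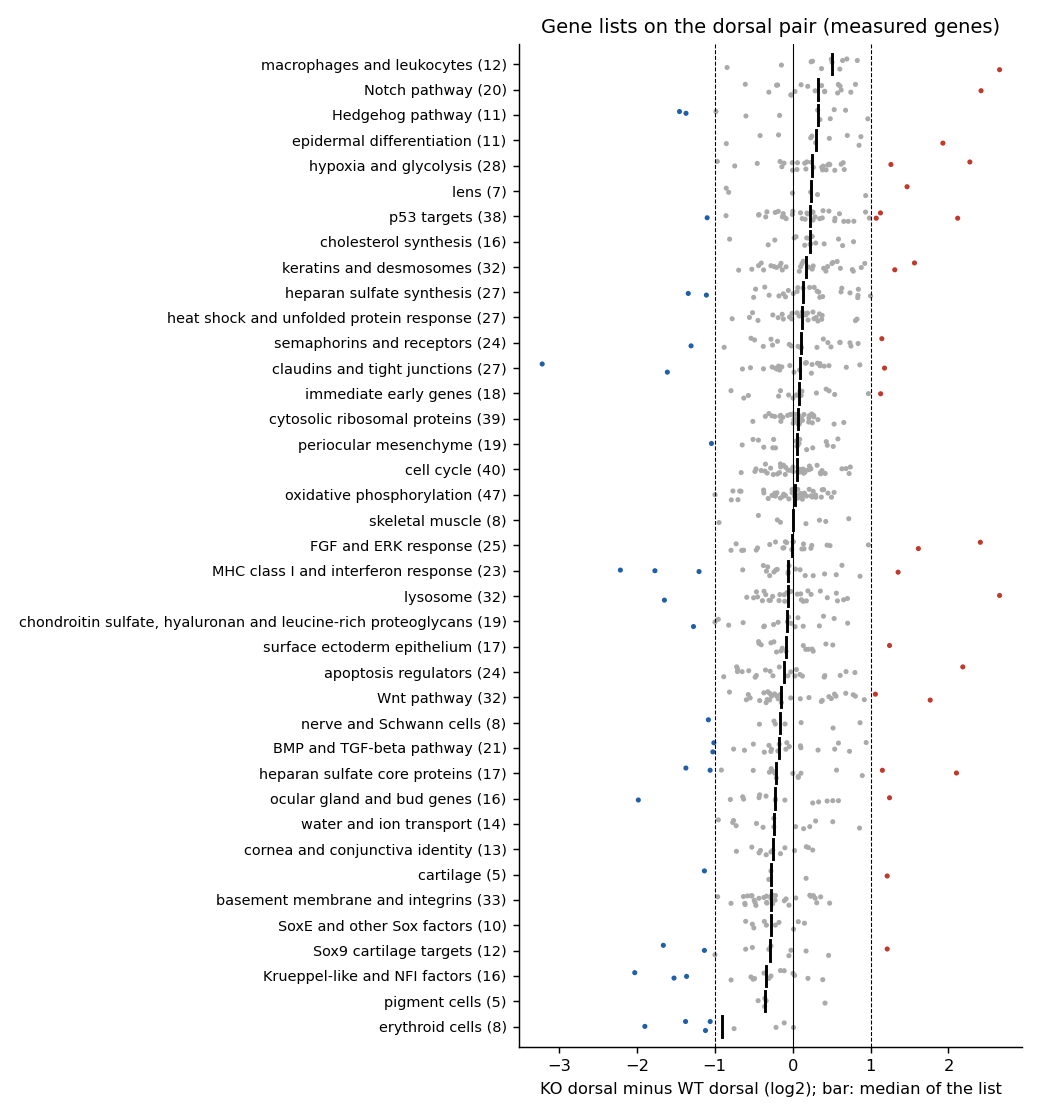
Difference between KO dorsal and WT dorsal (log2, x axis) of each measured gene, 1 row per list with its number of measured genes, red and blue points for genes at least 2-fold higher and lower and a black bar for the list median. With quantile normalization the macrophage and leukocyte list has the highest median (0.50) and the erythroid list the lowest (-0.91). Macrophage and leukocyte genes detected on KO dorsal alone entered through that array.

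Markers of blood cells differed between the dorsal arrays more than those of other tissues. In bulk tissue, fewer cells of a type and less RNA per cell cannot be told apart. Of 8 measured erythroid genes 7 were lower and 4 past 2-fold, Hbb-y, Hbb-bt (5.40 against 6.78), Hbb-bs (6.63 against 7.75) and Hba-a1 (4.87 against 5.93), and these globin copies share sequence. The summed erythroid level (log2) was 8.12 on KO dorsal and 9.82 and 9.21 on the other KO arrays, against 9.03 to 9.39 on WT arrays, so KO dorsal was the lowest of the 6. Of 12 measured macrophage and leukocyte genes 10 were higher, with Laptm5 alone past 2-fold. Their sum was 8.42 to 9.29 on KO arrays, with 8.98 on KO dorsal, and 7.99 to 8.36 on WT arrays. Of 22 macrophage and leukocyte markers on the array 10 were detected on neither dorsal array, among them the pan-leukocyte marker Ptprc, C1qb and C1qc. The macrophage receptors Csf1r and Cx3cr1 were detected on WT dorsal alone, and Adgre1, Mrc1, Lyz2, Tyrobp, Fcgr3 and C1qa on KO dorsal alone. A gene was measured if detected on at least 1 dorsal array. Genes detected on KO dorsal alone therefore entered through the array where they were higher. This fixes part of the count, the sum and the median in advance. The part of blood cells in any other difference was not tested. Without the erythroid and macrophage lists, a count added after seeing the data, 356 genes were at least 2-fold higher and 349 lower.

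Few markers of tissues beside the conjunctiva were past 2-fold. Of 22 periocular mesenchyme markers on the array 17 were detected on both dorsal arrays, and the collagen Col3a1 (6.62 against 7.67) alone was past 2-fold. Their summed level was 11.26 on KO dorsal and 11.37 on WT dorsal. Of 17 lens markers 10 were detected on neither dorsal array, including the crystallin Cryaa and the factor Foxe3, and Maf (6.87 against 5.40) was past 2-fold higher. The summed lens level was 8.32 on KO dorsal and 7.90 on WT dorsal. Of 5 measured pigment cell and 8 skeletal muscle markers none was past 2-fold, and the pigment median was -0.36 (-0.29 with median scaling). The neural retina factors Rax, Six3 and Six6 and the endothelial genes Pecam1, Cdh5 and Kdr were detected on neither. Ncam1 (5.37 against 6.45), a neural adhesion molecule, was the nerve marker past 2-fold, with 0.09 by a second probe, and Sox10 was detected on WT dorsal alone. In the sums of mesenchyme, surface ectoderm and endothelium markers, KO arrays and WT arrays overlapped.

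The values rest on 1 array a side and on the background correction. Without background correction 58 of the 710 genes stayed past 2-fold (8.17%), and with an offset of 50 in place of 16, 131 did (18.5%). None of the 54 genes named for their size or agreeing probes changed sign under any of the 9 alternatives that gave them a value. These genes were chosen for such differences on the same arrays, so a change of sign was unlikely from the start. Sox9 turned to 0.14 as a mean of its probes.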

How the data were processed

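Gene expression in mouse conjunctival epithelium was measured on Illumina bead arrays. Per the file headers, the deposited table gives for each probe and array an average signal intensity, its standard error over beads, a bead count and a detection p-value, and the submitters' processing notes name GenomeStudio with no version. The deposited intensities have unequal medians and no values near 0, as signals without background subtraction or normalization do. Arrays without counts of molecules carry no depth, and their number limits the precision. The 1315 entries without a probe identifier were not used.

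Intensities of all 6 arrays were corrected with normexp (background estimated through the detection p-values, offset 16), quantile-normalized and taken to log2 with limma 3.58.1 in R 4.3.3. The script was tested on simulated data. Symbols came from the platform annotation, updated through RefSeq GRCm38.p6 (34885 probes with 1 symbol, 18 with several, 10378 with none). A probe entered if detected (p under 0.05) on at least 1 dorsal array, and the brightest stood for its gene. A called gene was at least 2-fold apart. Bead SEs were carried to the log2 scale. No test was made, because each side had 1 array.

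The text names the 12 highest and 12 lowest genes detected on both arrays and past 3 bead SE, the 6 largest bounds each way among genes with no probe detected on the other array, the 10 leading genes with agreeing probes each way, list members past 2-fold with the 2 brightest of a list, and Sox9. A few other list members were named after their values were seen. The members and the 42 lists were chosen with earlier results of these data known. The 9 alternatives changed background correction, offset, scaling, filters or the probe rule, or used the authors' processed intensity values, for which the sources used here give no normalization.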

Additional observations from a re-analysis of the deposited data

Results flagged for a closer look

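Genes past 2-fold in dorsal and past 2-fold the other way in both nasal and temporal were picked out among 54 named genes, and 2 met this rule. Bbc3, the p53-induced death factor, differed by 2.12 between KO dorsal and WT dorsal (log2, KO minus WT), against -1.50 in nasal and -1.30 in temporal. Fam110b differed by 1.70 in dorsal, against -1.81 in nasal and -1.07 in temporal, and its second probe gave 1.76 in dorsal, -1.86 in nasal and -0.72 in temporal, the last under 2-fold. With 1 array per genotype and region, the difference between regions was not tested. Neither of the other Bbc3 probes was detected on KO dorsal, so its value rests on 1 probe.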

How the results depend on the processing

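Counts are given as higher, then lower, on KO dorsal, against 357 and 353 genes. They were 29 and 29 without background correction, 65 and 66 with an offset of 50, and 651 and 170 with arrays scaled to a common median. With the mean over probes 222 genes were lower. Genes with agreeing probes, 20 and 21, numbered 0 and 1 without background correction, 4 and 1 with an offset of 50, and 46 and 3 with median scaling. Sox9 differed by -0.24 with median scaling and 0.14 as a mean of both probes, whose signs differ. Probes at least 2-fold apart in the dorsal pair, 5.62%, were 0.369% without background correction, 0.919% with an offset of 50 and 2.89% with no detection filter, and between WT temporal and WT dorsal, 5.16%, they were 0.532%, 1.03% and 2.63%. A background left in or a larger offset compresses log2 differences by construction, and no filter adds undetected probes. The cause of the shift under median scaling was not tested. Counts in the remaining settings were within 1.5 times, and the authors' processed values left 627 of the 710 genes past 2-fold (88.3%). Of 42 list medians, 12 took the other sign with median scaling, 10 with no detection filter, 6 with the mean of probes and 1 to 4 in each other setting. No paired analysis was possible because each genotype had 1 dorsal array, so no array could be left out either. Signal near background limits the dim genes, and a bead SE says nothing of embryos.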
